A study of Mus musculus with 38 samples.

Results

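Sebaceous gland lipid genes, 10 in number, were followed through 38 bulk RNA-seq libraries of mouse tail skin. They were chosen by symbol, as the rows of the deposited count table named Scd1, Scd3, Elovl3, Awat1, Awat2, Dgat2l6, Far2, Cidea, Krt79 and Fasn, and all 10 were found among 19218 genes. The study induced vitiligo, the patchy loss of skin pigment, in mice and asked how gut microbes and hippuric acid, a metabolite that gut microbes help to make, affect the skin. Libraries without induction came from wild type mice left untreated (no_induction, n = 9), and those of the vitiligo group from mice after vitiligo induction (n = 9). The study depleted gut microbes with ABX, and 2 further groups had ABX, 1 wild type (no_induction_ABX, n = 6) and 1 with vitiligo induction (vitiligo_ABX, n = 6). In the last 2 groups wild type mice received intraperitoneal vehicle (n = 3) or hippuric acid (n = 5). How vitiligo was induced, the drugs behind the name ABX, doses, durations, strain, age and sex are not given in the sources used here. The labels number the libraries but do not tie them to separate mice, so the p-values below measure the spread between libraries.

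Sebaceous glands sit beside hair follicles, and their cells fill with lipid and burst to release sebum, a mixture rich in wax esters, triglycerides and cholesterol esters. Fatty acid synthase, encoded by Fasn, builds palmitate, the elongase Elovl3 lengthens fatty acids, and the desaturases Scd1 and Scd3 place a double bond in them. Far2 reduces fatty acids to fatty alcohols, and the acyltransferases Awat1 and Awat2 join these alcohols to fatty acids to make wax esters. Dgat2l6 belongs to the same acyltransferase family. Cidea coats lipid droplets and helps them grow, and Krt79 is a keratin of the upper follicle and the sebaceous duct. Loss of Scd1 in mice leaves sebaceous glands shrunken and the coat thin.

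Scd1 and Scd3 lie close together on chromosome 19 (GRCm38, GENCODE annotation), Scd1 at 44394455 to 44407879 on the minus strand and Scd3 at 44203269 to 44244016 on the plus strand. Their coding sequences matched at 979 of 1067 aligned bases, or 91.8%. The stretches below are shown because the results for this pair rest on telling the copies apart. Among windows of 120 coding bases without gaps, taken at fixed steps, they are the pair in which the copies differed most. They lie at coding positions 289 to 408 of Scd1 and 301 to 420 of Scd3, counted from the start codon. The 21 differing bases are in capitals.
Scd1: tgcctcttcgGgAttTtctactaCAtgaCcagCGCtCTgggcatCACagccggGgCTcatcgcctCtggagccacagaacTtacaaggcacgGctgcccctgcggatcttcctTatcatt
Scd3: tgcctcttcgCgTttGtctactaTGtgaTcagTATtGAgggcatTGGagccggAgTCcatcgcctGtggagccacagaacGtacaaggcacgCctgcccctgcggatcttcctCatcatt
Even here the copies shared runs of identical bases. Of all stretches of 100 bases in Scd1 transcripts, 1.8% also occurred in Scd3 transcripts, and 2.49% of those in Scd3 occurred in Scd1. Deposited values that were not whole numbers, as arise when reads are divided between features, occurred for Scd1 in 36 libraries, for Scd3 in 38 and for Far2 in 37, and for none of the other 7 genes. Scd3 was the lower of this pair by far, at 0.192% to 4.99% of the Scd1 level in library-size-scaled counts (CPM), so its values carry an uncertainty from misassigned reads that was not measured. Awat1, Awat2 and Dgat2l6 are neighbours on chromosome X, between 100402221 and 100578205, with coding sequences 65.6% to 69.2% identical in pairs and 0 shared stretches of 100 bases.

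The libraries held 15341831 to 27920844 assigned counts, and every member passed the filter on low counts in every comparison. The lowest count of any member in any library was 179, for Dgat2l6. Per kilobase of exon, the mean level over the 38 libraries was highest for Scd1 at 1650 CPM, followed by Krt79 at 458, Far2 at 177, Awat1 at 126, Elovl3 at 103, Fasn at 90.3, Cidea at 87.9, Scd3 at 34.6, Dgat2l6 at 15.7 and Awat2 at 14.9. Cidea and Elovl3 are also known from brown fat, where Ucp1 is the defining gene, and Ucp1 was at or below 0.517 CPM and at 0 in 12 libraries. Of the other brown fat genes listed, Cox7a1 and Cox8b reached at most 1.4 and 1.89 CPM. Dio2, Otop1 and Prdm16 were higher, with medians of 3.58, 2.53 and 9.74 CPM. A part of brown fat in the Cidea and Elovl3 levels was not tested. Libraries no_induction 011 and 012 and vehicle 001 carried Y-linked transcripts at a summed 173 to 229 CPM, against at most 0.315 CPM in the other 35. The same 3 libraries and vitiligo 000 and 260 exceeded 3 times the median of summed gut and pancreas transcripts. Several results that rest on these libraries are given with and without them.

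**Figure D1:**
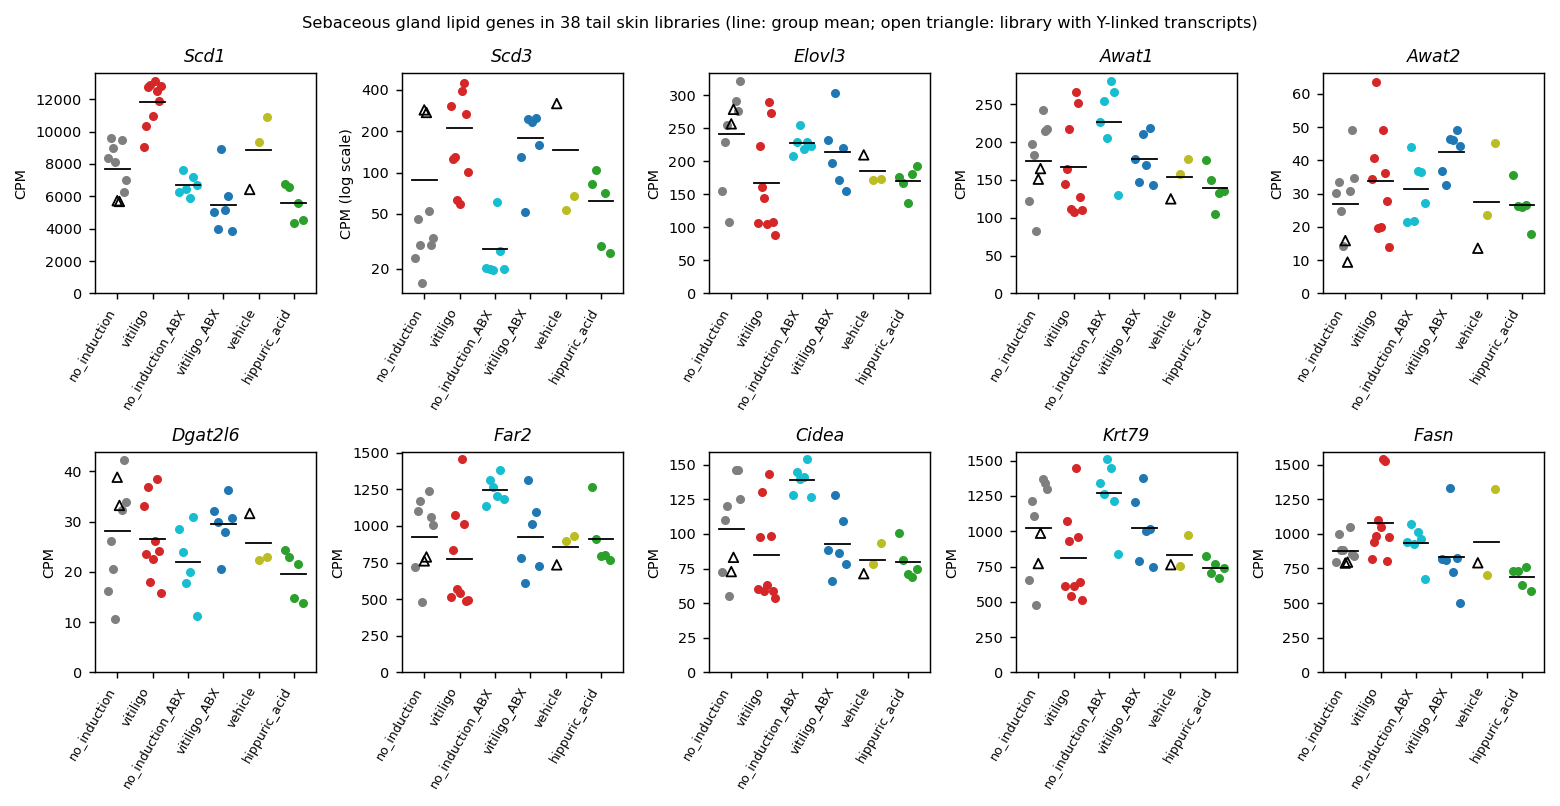
Level of each gene in CPM in each of the 38 libraries, by group, on linear axes from 0 except for Scd3, whose axis is logarithmic. Points are libraries, lines are group means and open triangles are the 3 libraries with Y-linked transcripts. Scd1 is highest in the vitiligo group, at 9044 to 13135 CPM, and Scd3 spreads over 28.6-fold.

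The changes that passed the edgeR test fell on Scd1, Scd3 and Cidea. With edgeR and an adjusted p under 0.05, vitiligo against no_induction called 1 member, Scd1, which was higher, where 7.74% of all genes tested were called. Adding ABX to induction, vitiligo_ABX against vitiligo, called 1 member, Scd1, which was lower (13.1% of all genes). ABX without induction, no_induction_ABX against no_induction, called 0 of the 10 although 31.1% of all genes were called, with 3 members at an unadjusted p under 0.05 and 2 called by DESeq2. Within the mice given ABX, vitiligo_ABX against no_induction_ABX called 2 members, Scd3 higher and Cidea lower (4.97% of all genes). Hippuric acid against vehicle called 0 members (13.8% of all genes), with 2 at an unadjusted p under 0.05 and 1 called by DESeq2. Vehicle against no_induction called 0 members and 0% of all genes by edgeR, with 509 genes but 0 members at an unadjusted p under 0.05, 7 genes by DESeq2 and 3 by limma-voom. The interaction, which is the effect of induction with ABX minus that without it, called 1 member, Scd1 (11.5% of all genes). For all 10 genes, groups that were neighbours in the order of mean levels had overlapping ranges.

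**Figure D2:**
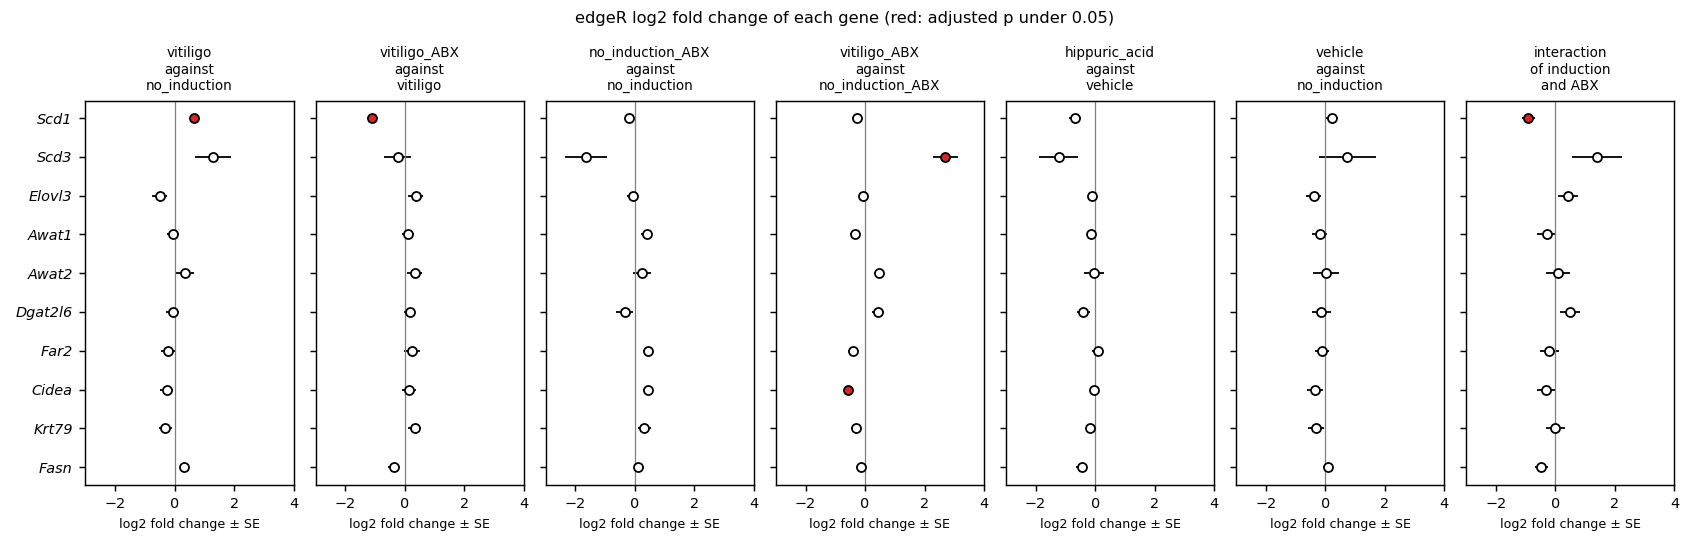
Log2 fold change with its standard error from edgeR for each gene, in 6 comparisons of groups and in the interaction. Red points have an adjusted p under 0.05. Scd1 is red in 3 panels, and Scd3 at 2.69 and Cidea at -0.57 are red in vitiligo_ABX against no_induction_ABX.

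Scd1, the main desaturase of skin, rose with vitiligo induction and was low when induction was combined with ABX. The lowest, median and highest levels were 5683, 8127 and 9573 CPM in no_induction and 9044, 12484 and 13135 CPM in vitiligo. All vitiligo libraries but 1 lay above every no_induction library. The fold change was 1.56 (log2 0.64 ± 0.13 SE, edgeR adjusted p = 0.0044, n = 9 and 9), and leaving out any 1 library gave log2 values of 0.59 to 0.69 with adjusted p from 0.0027 to 0.0117. Within the 35 libraries that lack Y-linked transcripts it was 0.53 (adjusted p = 0.00959).

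In vitiligo_ABX, Scd1 ranged from 3868 to 8900 CPM with a median of 5093, and all 6 libraries lay below all 9 vitiligo libraries. The level was 2.14-fold lower (log2 -1.10 ± 0.17 SE, edgeR adjusted p = 0.000655), and the call held without any 1 library (log2 -1.29 to -1.01). ABX without induction left a mean of 6688 ± 632 CPM (SD, n = 6) against 7689 ± 1556 CPM (SD, n = 9), a difference that did not pass the test (log2 -0.19, 95% interval -0.47 to 0.09, adjusted p = 0.319). Without the Y-linked libraries it was -0.29 (adjusted p = 0.0797). The induced and uninduced groups with ABX overlapped as well (log2 -0.27, interval -0.62 to 0.08, adjusted p = 0.431). Without vitiligo_ABX 003, the highest of its group at 8900 CPM, the difference was -0.47 (edgeR adjusted p = 0.044). The interaction was -0.92 ± 0.22 SE on the log2 scale (edgeR adjusted p = 0.00647), so the effect of induction on Scd1 differed between mice with and without ABX. In the same interaction 12 of 13 hair follicle genes were called, all positive (median log2 2.03), where 11.5% of all genes were called. The part of hair follicle cells in the Scd1 interaction was not tested.

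Genes of fat cells moved in the direction of Scd1 in both comparisons of pairs of groups that called it. Of 15 adipocyte genes, among them the droplet coat Plin1 and the hormone Lep, 14 were higher in vitiligo than in no_induction (median log2 1.97, against 0.01 for all genes), and 14 were lower in vitiligo_ABX than in vitiligo (median -3.21). Their summed level was 754 to 2609 CPM in no_induction, 3458 to 10027 in vitiligo, 385 to 818 in no_induction_ABX and 525 to 1612 in vitiligo_ABX. In no_induction_ABX against no_induction 13 of the 15 were lower (median -2.89), although Scd1 was not called there (log2 -0.19, edgeR adjusted p = 0.319). Of 9 epidermal genes, 5 were lower in vitiligo_ABX than in vitiligo (median -0.64) and 0 were called with induction, and their part in the Scd1 difference was not tested. Scd1 is itself made by fat cells, and in bulk skin fewer cells of a type and less RNA per cell cannot be told apart. With the adipocyte level as a covariate, none of the Scd1 calls was kept: the log2 values were 0.63 for induction (adjusted p = 0.57), -0.56 for vitiligo_ABX against vitiligo (adjusted p = 0.896) and -0.75 for the interaction (adjusted p = 0.0881). In the first 2 of these fits 0 and 1 of all genes were called, and the adipocyte levels of the groups compared did not overlap. Group and adipocyte level cannot be told apart there. Once group means were removed, Scd1 tended to be higher in libraries with more adipocyte RNA, but the relation did not pass the test (Pearson's r = 0.37, adjusted p = 0.0781, Spearman's rho = 0.28, adjusted p = 0.145, permutation within groups, n = 38), and r was 0.18 without the 2 libraries farthest from the median of Scd1.

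**Figure D3:**
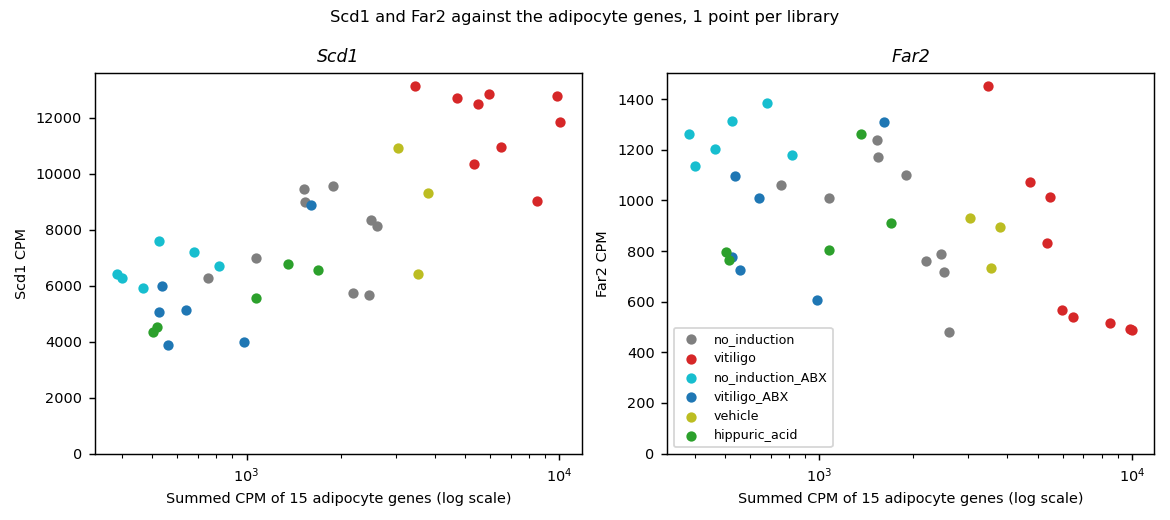
Scd1 (left) and Far2 (right) in CPM against the summed CPM of 15 adipocyte genes on a log axis, 1 point per library, coloured by group. The 9 vitiligo libraries lie at the upper right for Scd1, between 3458 and 10027 summed CPM, whereas Far2 spreads between 488 and 1454 CPM in the same libraries.

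Scd3, a desaturase of sebocytes, was the most variable of the 10 genes, and it was higher after induction in mice given ABX. In no_induction_ABX 5 libraries lay between 19.5 and 27.1 CPM and library 004 at 60.8 CPM, and in vitiligo_ABX the lowest, median and highest levels were 51.7, 195 and 248 CPM. In all, 5 of the 6 vitiligo_ABX libraries exceeded every no_induction_ABX library. The fold change was 6.45 (log2 2.69 ± 0.42 SE, edgeR adjusted p = 0.00793, n = 6 and 6), with values of 2.56 to 3.07 and adjusted p of at most 0.0295 when any 1 library was left out. The call held under all 8 of the other alternatives run, the adipocyte covariate included (2.66 to 2.87). No alternative adjusted for hair follicle genes, which were higher in this comparison (median log2 1.62, against 0.01 for all genes). Their summed level was 9500 to 18960 CPM in vitiligo_ABX and 1410 to 7273 CPM in no_induction_ABX. Their part in the Scd3 difference was not tested.

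Without ABX the edgeR call turned on the libraries with Y-linked transcripts. Scd3 was at 286 and 274 CPM in no_induction 011 and 012, which carry these transcripts, and between 15.6 and 52.5 CPM in the other 7 no_induction libraries. The 9 vitiligo libraries, none with Y-linked transcripts, ranged from 59.1 to 447 CPM with a median of 129 and so lay above all of those 7. With all libraries the log2 fold change was 1.29 ± 0.60 SE and did not pass the test (edgeR adjusted p = 0.175), while limma-voom with sample weights called it at 1.83 (adjusted p = 0.0045). Limma-voom called 5894 of all genes in this comparison, against 1070 by edgeR. By edgeR without the 2 libraries the log2 fold change of Scd3 was 2.68 (adjusted p = 0.00123). Leaving out the libraries with raised gut and pancreas transcripts, which removes the same 2 and vitiligo 000 and 260, gave 2.52 (adjusted p = 0.0061). The vehicle group showed the same split, with 318 CPM in library 001, which carries Y-linked transcripts, against 53.3 and 67.6 CPM in the other 2. Raised gut and pancreas transcripts occurred in these 3 libraries as well, so the 2 features cannot be told apart within the untreated and vehicle groups. High Scd3 also occurred without either feature, at 447 and 395 CPM in vitiligo 063 and 062, and vitiligo 000 and 260, with raised gut and pancreas transcripts alone, were at 307 and 269 CPM.

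Scd3 with ABX rested on the same libraries. In all libraries no_induction_ABX against no_induction gave a log2 value of -1.65 ± 0.70 SE (edgeR adjusted p = 0.0859), which passed the threshold by DESeq2 (adjusted p = 0.0405) and with all 38 libraries in 1 fit (adjusted p = 0.0458). Without Y-linked libraries it was -0.23 (adjusted p = 0.636). Vitiligo_ABX and vitiligo had means of 178 ± 79.1 CPM (SD, n = 6) and 211 ± 147 CPM (SD, n = 9), a log2 difference of -0.24 with a 95% interval of -1.12 to 0.64 (adjusted p = 0.763). The interaction was 1.39 ± 0.84 SE (adjusted p = 0.286) and became -0.02 (adjusted p = 0.985) without the Y-linked libraries. With all libraries, induction in mice with ABX was called for Scd3 and not for Scd1, and the difference between the genes was not tested.

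**Figure D4:**
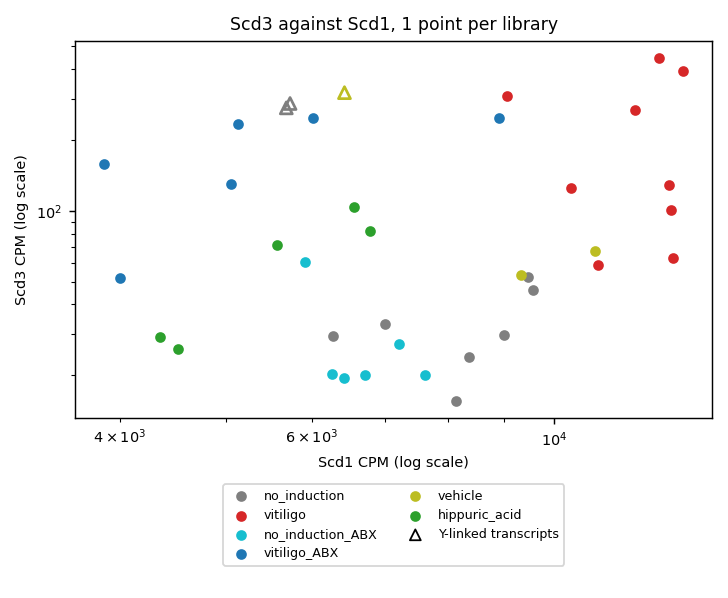
Scd3 against Scd1 in CPM, both on log axes, 1 point per library, coloured by group, with triangles for the 3 libraries with Y-linked transcripts. The vitiligo_ABX libraries lie at 3868 to 8900 CPM of Scd1 and 51.7 to 248 CPM of Scd3, and the triangles sit at 274 to 318 CPM of Scd3.

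The genes that build and lengthen fatty acids were called in no comparison by edgeR with all libraries. Fasn had a mean of 878 ± 91 CPM (SD, n = 9) in no_induction and 1082 ± 272 CPM (SD, n = 9) in vitiligo, where libraries 062 and 063 reached 1537 and 1524 CPM. The log2 fold change of 0.33 ± 0.13 SE did not pass the test (edgeR adjusted p = 0.108). In vitiligo_ABX the mean was 834 ± 273 CPM (SD, n = 6), a log2 difference of -0.37 from vitiligo (adjusted p = 0.219), and without vitiligo_ABX 003, the highest of its group at 1332 CPM, the difference was -0.56 (adjusted p = 0.0442). With all libraries limma-voom called it at -0.48 (adjusted p = 0.0328), with 4399 of all genes called against 1837 by edgeR. The Fasn interaction of -0.48 (adjusted p = 0.155) became -0.67 (adjusted p = 0.0268) without the same library and -0.61 (adjusted p = 0.0118) by limma-voom with all libraries. Elovl3 had a median of 257 CPM in no_induction and 145 CPM in vitiligo. Of the 9 vitiligo libraries, 4 lay below every no_induction library, and the log2 fold change of -0.51 ± 0.24 SE did not pass the test (edgeR adjusted p = 0.182). Limma-voom with sample weights, which gives deviating libraries less weight, put it at -0.88 (adjusted p = 0.00236). That run called 5894 of all genes, against 1070 by edgeR. Elovl3 levels with ABX were 208 to 255 CPM without induction and 156 to 304 CPM with it, and they overlapped.

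Among the wax ester genes none changed by edgeR in any comparison, and Far2 came nearest. Far2, the reductase that supplies fatty alcohols, lay between 1136 and 1384 CPM in all 6 no_induction_ABX libraries, and between 479 and 1240 CPM in no_induction with a median of 1008. The log2 difference was 0.44 ± 0.16 SE with an edgeR adjusted p of 0.0504, and it passed the threshold without any 1 of no_induction 002, 003, 005 and 021 (adjusted p = 0.0316 to 0.0445) and by DESeq2 (adjusted p = 0.0278). Without the Y-linked libraries it was 0.38 (adjusted p = 0.117). Markers of other cells moved in this comparison: 13 of 13 hair follicle genes (median log2 -1.30), 13 of 15 adipocyte genes (median -2.89) and 5 of 9 epidermal genes (median -0.49) were lower. The summed hair follicle level was 1410 to 7273 CPM with ABX and 5578 to 18859 CPM without it, and the part of these cells in the Far2 and Cidea differences was not tested. In Far2, 5 of the 6 vitiligo_ABX libraries lay below every no_induction_ABX library, with a log2 difference of -0.42 ± 0.16 SE that did not pass (adjusted p = 0.149). It was -0.56 (adjusted p = 0.0312) without vitiligo_ABX 003, the highest of that group at 1311 CPM.

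The wax synthases and their relative stayed within 281 CPM in every library. Awat1 had means of 175 ± 50.7 CPM (SD, n = 9) in no_induction, 166 ± 62.7 in vitiligo (SD, n = 9), 227 ± 54.7 in no_induction_ABX (SD, n = 6) and 178 ± 31.2 in vitiligo_ABX (SD, n = 6). Its largest log2 difference among these groups was 0.39, for ABX without induction (edgeR adjusted p = 0.158). Awat2 was low in the 3 libraries with Y-linked transcripts, at 9.43 to 15.9 CPM, against 14.1 to 63.5 CPM elsewhere. In mice with ABX all 6 induced libraries exceeded the uninduced mean of Awat2 (42.5 ± 6.45 against 31.3 ± 9.14 CPM, SD, n = 6 each), but the log2 difference of 0.46 ± 0.17 SE did not pass the test (adjusted p = 0.142). Dgat2l6 gave 29.5 ± 5.21 against 22 ± 7.25 CPM (SD, n = 6 each) in the same comparison, a log2 difference of 0.44 ± 0.20 SE (adjusted p = 0.236). Neither gene differed by the test with induction alone, with log2 values of 0.35 for Awat2 (95% interval -0.23 to 0.93) and -0.07 for Dgat2l6 (-0.51 to 0.38). Without the Y-linked libraries the Awat2 value was 0.14 (edgeR adjusted p = 0.783).

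Cidea, the droplet protein, fell with induction in mice given ABX. It lay between 127 and 154 CPM in no_induction_ABX and between 66.1 and 128 CPM in vitiligo_ABX, and 5 of the 6 induced libraries were below all uninduced ones. The log2 difference was -0.57 ± 0.13 SE, or 1.48-fold lower (edgeR adjusted p = 0.0258). The call is close to its threshold: it was lost without any 1 of no_induction_ABX 002, 004 and 005 and vitiligo_ABX 001 and 004 (adjusted p = 0.0519 to 0.0624), and with all 38 libraries in 1 fit (adjusted p = 0.116). Hair follicle genes moved in this comparison too, with 4 of 13 higher and a summed level of 9500 to 18960 CPM in vitiligo_ABX against 1410 to 7273 CPM in no_induction_ABX, and their part in the Cidea difference was not tested. Of the 14 adipocyte genes tested, 0 were called by edgeR there, with 7 at an unadjusted p under 0.05. Without ABX, Cidea had medians of 110 CPM in no_induction and 63 CPM in vitiligo, with a log2 difference of -0.26 that did not pass (adjusted p = 0.475).

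ABX without induction gave Cidea a log2 difference of 0.44 ± 0.18 SE (edgeR adjusted p = 0.0776), which passed without no_induction 021 or 022 (adjusted p = 0.0422 and 0.0398). Without the Y-linked libraries it was 0.35 (adjusted p = 0.184). Krt79, the duct keratin, was called in no comparison by edgeR with all libraries. Its means were 1024 ± 324 CPM (SD, n = 9) in no_induction, 814 ± 312 in vitiligo (SD, n = 9), 1269 ± 239 in no_induction_ABX (SD, n = 6) and 1022 ± 241 in vitiligo_ABX (SD, n = 6). Induction gave Krt79 log2 differences of -0.31 without ABX and -0.30 with it, and the interaction was 0.00 (95% interval -0.62 to 0.63). Limma-voom with sample weights called Far2, Cidea and Krt79 lower with induction alone, at log2 values of -0.58, -0.65 and -0.67 (adjusted p = 0.0201, 0.0131 and 0.00728). It called 5894 of all genes there, against 1070 by edgeR. In vitiligo_ABX against no_induction_ABX it also called Krt79 (-0.44, adjusted p = 0.0385) and Far2 (-0.45, adjusted p = 0.0357) lower, with 1530 of all genes called against 689 by edgeR.

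Hippuric acid in wild type mice left all 10 genes without a call, and 9 of the 10 differences from vehicle were negative. Scd1 was at 6425, 9322 and 10911 CPM in the vehicle libraries and at 6777, 6557, 4354, 5574 and 4526 CPM in the hippuric acid libraries. Of the 5 treated libraries, 3 lay below every vehicle library, and vehicle 001, the lowest control, was the library with Y-linked transcripts. The log2 difference was -0.68 ± 0.21 SE (edgeR adjusted p = 0.0568). Without vehicle 001 it was -0.84 (adjusted p = 0.00736), and the threshold was also passed by DESeq2 (adjusted p = 0.00643), limma-voom (0.0329) and the fit of all 38 libraries (0.0303). Adipocyte genes moved with it, 11 of 15 being lower with hippuric acid (median log2 -1.81) at a summed 504 to 1694 CPM against 3044 to 3797 CPM, and with their level as a covariate the Scd1 difference was 0.03. That fit called 3 of all genes. The adipocyte levels of the vehicle and hippuric acid groups did not overlap, so group and adipocyte level cannot be told apart there. Epidermal genes moved too, 7 of 9 being lower (median log2 -1.14) at a summed 13022 to 16651 CPM against 32641 to 45758 CPM, and their part in the difference was not tested.

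Scd3 followed vehicle 001 in this comparison. Its levels were 318, 53.3 and 67.6 CPM with vehicle and 82.4, 104, 29.0, 71.5 and 25.8 CPM with hippuric acid, so 3 of the treated libraries exceeded both vehicle libraries that lack Y-linked transcripts. The log2 difference of -1.23 ± 0.65 SE (edgeR adjusted p = 0.238) became 0.07 without vehicle 001. Fasn was at 791, 700 and 1326 CPM with vehicle and 591 to 759 CPM with hippuric acid (log2 -0.45 ± 0.19 SE, adjusted p = 0.146). Krt79 was at 763, 751 and 971 CPM with vehicle and at 826, 702, 765, 668 and 739 CPM with hippuric acid, a log2 difference of -0.16 (95% interval -0.41 to 0.09). The 95% intervals of the log2 difference were -0.26 to 0.44 for Far2, -0.30 to 0.24 for Cidea, -0.45 to 0.18 for Awat1 and -0.36 to 0.12 for Elovl3. With 3 control libraries the comparison is thin, and 20.2% of simulated 1.5-fold changes were recovered in it.

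Some other genes of lipid synthesis and of sebaceous glands moved as Scd1 did with induction and with ABX added to it. Others did not. Of 30 further lipid synthesis genes tested, 4 rose and 0 fell with induction, where 7.74% of all genes were called (median log2 -0.01): Mlxipl and Thrsp, regulators of fat synthesis (1.60 ± 0.21 and 1.68 ± 0.41 SE), the acyl-CoA synthetase Acsl1 (0.75 ± 0.12 SE) and the lipase Pnpla3 (0.78 ± 0.19 SE). In vitiligo_ABX against vitiligo 1 of 31 rose and 7 fell (13.1% of all genes called), among them Thrsp (-3.95 ± 0.50 SE), Mlxipl (-2.58 ± 0.32 SE), Acsl1 (-1.74 ± 0.17 SE) and the triglyceride synthase Dgat2 (-1.14 ± 0.17 SE). Several of these are also strongly expressed in fat cells, and the adipocyte genes moved in the same comparisons. ABX without induction, which did not call Scd1, raised 5 and lowered 9 of 30 (31.1% of all genes called). Among those lowered were Pnpla3 (-1.52 ± 0.18 SE), Acsl1 (-0.95 ± 0.14 SE) and Dgat2 (-0.78 ± 0.13 SE). Acaca, which makes the building block of fatty acids, was at -0.49 ± 0.08 SE. In the induced against uninduced mice with ABX 2 rose and 3 fell of 30 (4.97% of all genes called), the sterol sensor Insig1 rising (0.49 ± 0.08 SE) with the desaturase Fads2 (0.46 ± 0.12 SE), and the droplet coats Plin2 (-0.58 ± 0.14 SE) and Plin5 (-0.98 ± 0.26 SE) falling.

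Of 16 further sebaceous gland genes, 1 rose and 1 fell with induction (7.74% of all genes called). Pparg, the nuclear receptor that drives both sebocyte and fat cell differentiation, rose from 32.2 ± 4.63 to 58.5 ± 14.6 CPM (SD, n = 9 each, edgeR adjusted p = 0.000197), and Prdm1, a repressor expressed in the gland, fell from 72.3 ± 3.46 to 55.7 ± 4.59 CPM (log2 -0.35 ± 0.05 SE). In vitiligo_ABX against vitiligo 1 of 16 fell, Pparg (-1.07 ± 0.16 SE), and 1 rose, Sox9 (0.81 ± 0.21 SE), where 13.1% of all genes were called. ABX without induction raised 4 of 16, among them Mgst1 (0.59 ± 0.10 SE), Krt7 (0.74 ± 0.19 SE) and the melanocortin receptor of sebocytes Mc5r (0.66 ± 0.21 SE), and lowered 1, Prdm1 (-0.55 ± 0.11 SE), a share near the 31.1% of all genes called. In vitiligo_ABX against no_induction_ABX 0 of 16 were called by edgeR, with 5 at an unadjusted p under 0.05 and a smallest adjusted p of 0.0706, for the steroid dehydrogenase Hsd3b6. Hippuric acid, with 13.8% of all genes called, lowered 7 and raised 2 of 30 lipid synthesis genes, with Dgat2 at -1.18 ± 0.12 SE, and lowered 3 of the 16 gland genes, Aldh3b2 (-0.39 ± 0.09 SE), Pparg (-0.73 ± 0.19 SE) and Acsbg1 (-0.51 ± 0.15 SE).

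Within groups, 5 of the 10 genes varied together from library to library. After group means were removed, all 10 pairs of Elovl3, Awat1, Far2, Cidea and Krt79 had Pearson's r between 0.76 and 0.95 and Spearman's rho between 0.63 and 0.95 over 38 libraries, with adjusted p of at most 0.000183 and 0.00182 by permutation within groups, adjusted over 55 relations. Far2 and Cidea were closest (r = 0.95). Leaving out the 2 libraries farthest from the median of the first gene of each pair kept r between 0.65 and 0.93. These 5 genes were set apart after their correlations were seen. Of all 45 pairs of members, 29 were positive and 0 negative at an adjusted p under 0.05. Scd1 was closest to Fasn (r = 0.64) and Scd3 to Dgat2l6 (r = 0.52), and Scd1 and Scd3 were not related by the test (r = -0.13, rho = -0.03, n = 38, permutation adjusted p = 0.536 and 0.886). The points share sequencing depth and tissue makeup, which differ between libraries.

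**Figure D5:**
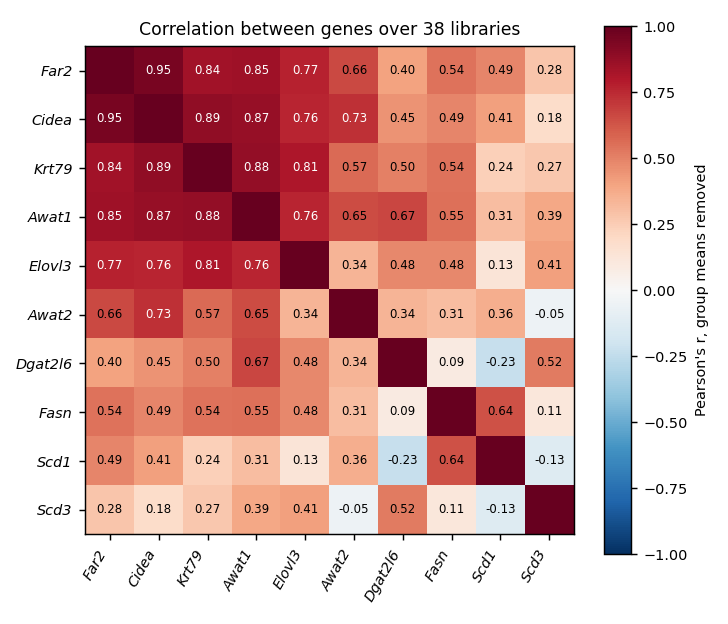
Pearson's r between the log2 levels of each pair of genes over 38 libraries, with each group's mean removed. Red is positive and blue negative. The block of Far2, Cidea, Krt79, Awat1 and Elovl3 holds values of 0.76 to 0.95, and the lowest value, -0.23, is that of Scd1 with Dgat2l6.

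The spread of Elovl3, Far2 and Cidea differed in size between groups, though this difference was not tested. Elovl3 had a coefficient of variation of 45.9% in vitiligo and 6.8% in no_induction_ABX, Far2 44.1% and 7.4%, and Cidea 39.8% and 7.4%. The gap was smaller for Krt79 (38.3% and 18.8%), Awat1 (37.7% and 24.1%) and Awat2 (46.4% and 29.2%). It was also smaller for Fasn (25.1% and 14.6%), Scd1 (11.8% and 9.4%) and Scd3 (69.9% and 58.5%), and Dgat2l6 had 30.2% and 32.9%. In vitiligo, library 062 was highest for Far2 (1454 CPM), Cidea (143 CPM) and Krt79 (1448 CPM) and had the lowest summed adipocyte level, 3458 CPM, while library 260 had the lowest Far2 (488 CPM) and the highest adipocyte level, 10027 CPM. With group means removed, Krt79 and Cidea were lower in libraries with more adipocyte RNA (Krt79 r = -0.45, rho = -0.48, permutation adjusted p = 0.0125 and 0.0065, Cidea r = -0.38, rho = -0.39, adjusted p = 0.0404 and 0.0423, n = 38). Without the 2 libraries farthest from each gene's median r was -0.37 for Krt79 and -0.29 for Cidea. These were the only 2 of the 10 members to pass. Far2 did not pass the permutation test (r = -0.28, rho = -0.29, adjusted p = 0.148 and 0.136), and its r was -0.15 without the 2 farthest libraries. CPM are shares of a library, so more RNA of one cell type lowers the share of the others, and the part this has in the relation was not tested.

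Outside the 10 genes, those most like their mean log2 level over the 38 libraries, with group means removed, were Tmem164 (r = 0.93, rho = 0.95), the acetyl-CoA carboxylase Acacb (0.93 and 0.92), Ces4a (0.92 and 0.89) and the lipase Pnpla5 (0.92 and 0.91), followed by Pxmp4, Acox3, Sdr42e1 and Lpcat3 at r of 0.88 to 0.91. Each gene also had its own nearest neighbours. Far2 was closest to Serpina3j (r = 0.96) and Pnpla5 (0.95), Cidea to Serpina3j (0.95) and the ceramide synthase Cers4 (0.94), and Krt79 to Mboat7 and Stard5 (0.91 each). Elovl3 was closest to the fatty acid hydroxylase Fa2h (0.90), Awat1 to Ces4a (0.95) and Sec14l4 (0.94), and Awat2 to the elongase Elovl6 (0.84) and Acsl5 (0.82). Fasn paired with Srebf1, the regulator of fatty acid synthesis, and Acly, which supplies its acetyl-CoA (0.85 each). Dgat2l6 was nearest to Elovl7 (0.79) and Acox2 (0.77), Scd1 to Apmap (0.77) and Aco1 (0.76), and Scd3 to Rarres1 (0.77) and Tmem86a (0.76).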

How the data were processed

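Tail skin RNA of 38 libraries was enriched with oligo(dT) and sequenced on an Illumina instrument, per the labels' protocols. The authors deposited estimated counts, that is an expected count of reads per gene and library, with no scaling by depth. HISAT2, Bowtie2 (2.2.8), StringTie (1.3.1) and DESeq2 are listed in the submitters' processing notes without their roles, and the genome build, the counter and strand use are not given in the sources used here. Of 19220 rows, 1 incomplete row and 1 without a symbol were left out. Non-whole values, found in 16.2% of genes, were rounded. No 2 libraries were identical. Groups came from the treatment labels.

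Counts were tested in R 4.3.3 with edgeR 4.0.16 (TMM scaling, filterByExpr, quasi-likelihood test, only the groups compared in each fit, 4 induction and ABX groups for the interaction), with Benjamini-Hochberg adjustment over all genes and a threshold of 0.05. CPM use TMM library sizes, and correlations use log2(CPM + 1) with 100000 permutations within groups. Exon lengths and positions are from GENCODE M21 (GRCm38). On simulated counts 70.7% to 90.0% of 2-fold changes were recovered, depending on the comparison. Alternatives were RLE scaling, 2 other filters, DESeq2 1.42.0, limma-voom (limma 3.58.1), all 38 libraries in 1 fit, an adipocyte covariate, a replicate block, and leaving out single libraries or those with Y-linked or gut and pancreas transcripts (over 10 times the median, and over 3 times, chosen after seeing the data). Of the other genes, the text takes up to 4 per list and comparison with the smallest p, and by likeness the nearest 8 to the members' mean and 2 to each member, of which 1 is not reported here. Members and lists were chosen with earlier results of these data known.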

Additional observations from a re-analysis of the deposited data

Results flagged for a closer look

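Among the 50 sets of values of 1 gene in a group of 4 to 10 libraries, 2 held a library that stood apart from the rest, where chance flags about 1 in 20 such sets. Scd3 was at 60.8 CPM in no_induction_ABX 004, against 19.5 to 27.1 CPM in the other 5 libraries of the group. Fasn was at 676 CPM in no_induction_ABX 006, against 927 to 1073 CPM in the other 5, and the same library had the group's lowest Awat1 (130 CPM), Dgat2l6 (11.2 CPM) and Krt79 (837 CPM). The effect of induction on Scd1 differed between mice with and without ABX, by -0.92 on the log2 scale (edgeR adjusted p = 0.00647), and it was -0.75 (adjusted p = 0.0881) with the adipocyte level as a covariate.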

How the results depend on the processing

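Scd1 kept its direction in every alternative run for induction, for vitiligo_ABX against vitiligo and for the interaction, and so did Scd3 and Cidea in vitiligo_ABX against no_induction_ABX. The calls that were lost are given below, and where no reason is stated the cause was not tested. The count of members called was 1 for induction (vitiligo against no_induction), and became 6 by limma-voom, 0 with the adipocyte covariate, and 2 without the Y-linked libraries or those over 3 times the gut and pancreas median. For vitiligo_ABX against vitiligo it was 1, and became 2 by limma-voom and 0 with the covariate or the replicate block. For no_induction_ABX against no_induction it was 0, and became 1 with the stricter filter or all 38 libraries in 1 fit and 2 by DESeq2. For vitiligo_ABX against no_induction_ABX it was 2, and became 4 by limma-voom and 1 with all 38 libraries. For hippuric acid against vehicle it was 0, and became 1 by DESeq2, limma-voom, all 38 libraries, or without libraries with Y-linked or raised gut and pancreas transcripts. For the interaction it was 1, and became 2 by limma-voom and 0 with the covariate. Where limma-voom called more members in these 4 cases of induction and ABX, it also called more of all genes than edgeR. The totals were 5894 for induction, 4399 for vitiligo_ABX against vitiligo, 1530 for vitiligo_ABX against no_induction_ABX and 4445 for the interaction. For hippuric acid limma-voom called 1 member against 0, but fewer of all genes than edgeR (1626 against 1940). Leaving out 1 library at a time gave 1 to 2 members in vitiligo_ABX against vitiligo, 0 to 2 in no_induction_ABX against no_induction, 1 to 4 in vitiligo_ABX against no_induction_ABX, 0 to 1 for hippuric acid and 1 to 2 for the interaction. Over all genes, the alternatives that keep every library or leave out a set of them gave 0 to 5894 calls for induction (1070 as reported), 1 to 4399 for vitiligo_ABX against vitiligo (1837), 1436 to 6567 for no_induction_ABX against no_induction (4351), 435 to 1530 for vitiligo_ABX against no_induction_ABX (689), 3 to 2786 for hippuric acid (1940), 0 to 7 for vehicle against no_induction (0) and 250 to 4445 for the interaction (1639).

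Every difference that changed sign had an adjusted p above the threshold as reported. The covariate was the mean log2(CPM + 1) of the 15 adipocyte genes. Among the comparisons of pairs of groups, this mean overlapped only in vitiligo_ABX against no_induction_ABX. By this measure group and adipocyte level cannot be told apart in the others. The summed CPM also overlapped in no_induction_ABX against no_induction (385 to 818 against 754 to 2609). There the covariate fit called 3384 of all genes, against 4351 without the covariate. With the adipocyte covariate, the log2 values for induction were 0.88 for Elovl3, 1.16 for Awat1, 0.79 for Dgat2l6, 1.12 for Far2, 1.26 for Cidea and 1.03 for Krt79. For vitiligo_ABX against vitiligo they were -0.30 for Elovl3, -0.71 for Awat1, -0.80 for Awat2, -0.83 for Dgat2l6, -0.63 for Far2, -0.66 for Cidea and -0.31 for Krt79. For no_induction_ABX against no_induction they were 0.04 for Scd1, 0.51 for Scd3, -0.60 for Awat1, -0.79 for Awat2, -0.09 for Far2, -0.46 for Cidea, -0.86 for Krt79 and -0.12 for Fasn. For hippuric acid they were 0.03 for Scd1, 0.80 for Scd3, 0.38 for Awat1, 0.39 for Awat2, 0.50 for Dgat2l6 and 0.28 for Cidea. For vehicle against no_induction they were -0.53 for Scd3, 0.11 for Elovl3, 0.40 for Awat1, 0.47 for Dgat2l6, 0.35 for Far2, 0.42 for Cidea and 0.37 for Krt79. For the interaction they were -0.48 for Awat2, -0.02 for Dgat2l6 and -0.37 for Krt79. Limma-voom gave -0.03 for Awat2 with induction, 0.18 for Scd3 in vitiligo_ABX against vitiligo, -0.01 for Far2 with hippuric acid, -0.0017 for Awat2 in vehicle against no_induction and 0.11 for the Far2 interaction. Without the Y-linked libraries induction gave 0.04 for Dgat2l6, hippuric acid 0.07 for Scd3 and 0.01 for Elovl3, and the Scd3 interaction was -0.02. Without libraries over 3 times the gut and pancreas median the values were 0.01 for Dgat2l6 with induction, and 0.07 for Scd3 and 0.01 for Elovl3 with hippuric acid. The Krt79 interaction of 0.00 became -0.01 there, -0.04 without the library over 10 times that median and -0.0024 with the stricter filter.

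Whether library numbers pair the groups was not settled: the deviations of same-numbered libraries from their group means correlated between -0.21 and 0.41, and these values were not tested. With a replicate block on shared numbers, vitiligo_ABX against vitiligo kept 2 pairs and lost the Scd1 call (-1.36, adjusted p = 0.337), and gave 0.19 for Scd3, -0.23 for Awat1, -0.32 for Awat2, -0.32 for Far2, -0.42 for Cidea and -0.06 for Krt79. The block gave 0.39 for Elovl3 and 0.51 for Dgat2l6 in no_induction_ABX against no_induction, 0.24 for Awat2 and 0.06 for Cidea with hippuric acid, and -0.05 for Scd1, -0.27 for Awat2 and 0.30 for Dgat2l6 in vehicle against no_induction. It changed no call in vitiligo_ABX against no_induction_ABX, where 6 numbers are shared. The block was not run for induction or the interaction, where 1 number or too few are shared. Leaving out 1 library at a time, signs changed for Awat1 (-0.16 to 0.02) and Dgat2l6 (-0.17 to 0.03) with induction, for Scd3 (-1.66 to 0.07), Elovl3 (-0.18 to 0.01), Awat2 (-0.36 to 0.52), Far2 (-0.06 to 0.15) and Cidea (-0.13 to 0.08) with hippuric acid, for Scd3 (-0.54 to 1.21), Awat2 (-0.55 to 0.35) and Fasn (-0.24 to 0.27) in vehicle against no_induction, and for the interaction of Awat2 (-0.06 to 0.26) and Krt79 (-0.10 to 0.15). Every member had 179 or more counts in every library, so counting error is small beside the spread between libraries.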
